A study of Mus musculus with 144 samples.

Results

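Endothelial cells isolated from the livers of control mice were compared between zeitgeber time (ZT, hours after lights on) 4, in the light phase, and ZT16, in the dark phase. The comparison rests on 6 RNA-seq libraries of the 144 in the series, namely the 3 control endothelial libraries at each of these times, taken by their labels. All 6 came from male C57BL/6J mice on normal chow whose genotype is given as WT, and the deposited columns call them GFP, read here as a control vector. The matching libraries of mice given as REV-ERB a/b double knockout, which the series design places in adult hepatocytes, are called CRE in the columns, read as the recombinase. What was delivered to the mice differed along with the genotype, and the 2 cannot be told apart. Control and knockout libraries also exist at ZT10 and ZT22, so that 12 control and 12 knockout endothelial libraries were used in all. The labels give no feeding schedule for the mice of the isolated cells, no isolation batch, and no statement that each library is a separate animal. The p-values therefore measure the spread between libraries, and isolation session and time of day cannot be told apart.

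The circadian clock is a transcriptional loop in which CLOCK or NPAS2 pairs with BMAL1 (gene Arntl) to switch on the Per and Cry repressors and the REV-ERB receptors, while REV-ERB and ROR receptors compete to repress or activate Arntl. The PAR bZIP factors DBP, TEF and HLF carry the rhythm to further genes. Liver sinusoidal endothelial cells line the sinusoids with a perforated sheet that has hardly any basement membrane. They clear macromolecules through scavenger receptors and signal to hepatocytes.

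Values are a quantile-normalised signal per transcript, so that every library holds the same set of values and only the ranks differ. Read depth is unknown, and a change shared by most genes could not be seen. Differences are given as log2 changes of value + 1, ZT16 minus ZT4, from limma across all genes, and a gene is said to have risen or fallen where its Benjamini-Hochberg adjusted p was under 0.05. Endothelial markers were abundant. For each marker the median signal over the 12 control libraries was taken, and then the median over its list. That level was 2570 for the 12 pan-endothelial markers (Pecam1, Cdh5, Kdr and others). For the 12 sinusoidal markers (Stab1, Stab2, Lyve1 and others) it was 8220. Hepatocyte, Kupffer cell and stellate cell markers stood at 712, 656 and 201. None of the 24 pan-endothelial and sinusoidal markers was called except Gpr182, an orphan receptor of sinusoidal cells. Gpr182 rose by 0.45 (SE 0.09, adjusted p = 0.018). RNA of other cells was present. The summed hepatocyte marker signal ranged from 15210 to 84270 at ZT4 and from 17400 to 59540 at ZT16, and 0 of 15 hepatocyte markers was called. The 14 Kupffer cell markers summed to between 10920 and 15530 at ZT4 and between 14030 and 19900 at ZT16. All 14 had a positive log2 change, with a median of 0.37, and 0 was called. The 13 stellate cell markers summed to between 16180 and 18620 at ZT4 and between 13160 and 15740 at ZT16, without overlap. Of the 12 tested, 10 had a negative log2 change, with a median of -0.28, and 2 were called, the collagens Col1a1 and Col3a1, which fell. Members not called included Lrat and Dcn, picked after their values were seen, which differed by -0.06 and 0.06. No hepatocyte, Kupffer or stellate marker was at 0 in all libraries of a group. The ribosomal RNA precursor Rn45s held 1.78% to 5.02% of the signal at ZT4 and 5.01% to 5.02% at ZT16. Under quantile normalisation such shares follow from rank, so they do not measure the content of ribosomal RNA. Fewer cells of a type and less RNA per cell cannot be told apart in these bulk libraries.

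Of 12177 genes tested, 447 were called (3.67%). At ZT16, 238 genes were higher (1.95%) and 209 were lower (1.72%). At an unadjusted p under 0.05 there were 2430 genes. The median log2 change over all genes was 0.01, and the median size of a called change was 0.66. Of the called genes, 43 were at least 2-fold higher and 52 at least 2-fold lower. The 3 ZT4 values and the 3 ZT16 values did not overlap for 446 of the 447, against 22.9% of all genes tested. The same values chose the called genes, so this separation is no further support for the calls. The number of calls depended on single libraries: it was 134 without ZT4 number 2, 136 without ZT16 number 1 and 135 without ZT16 number 2.

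**Figure D1:**
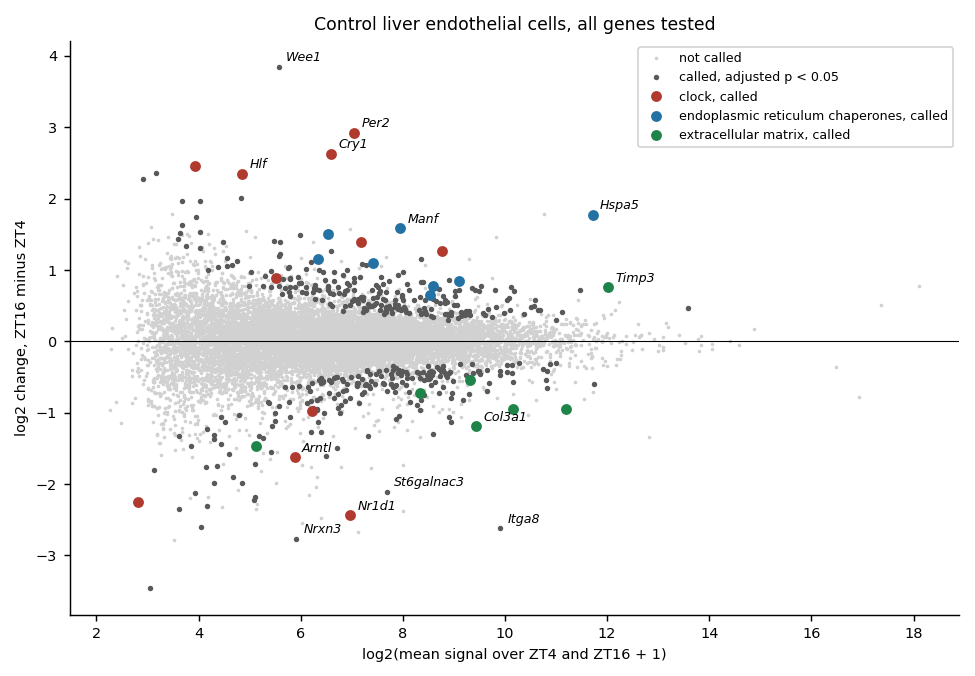
Log2 change of each tested gene from ZT4 to ZT16 in control endothelial cells (vertical axis) against log2 of its mean signal over both times plus 1 (horizontal axis). Each point is 1 of 12177 genes; dark points are the 447 called genes, and called members of the clock, endoplasmic reticulum chaperone and extracellular matrix lists are coloured. Wee1 at 3.85 has the largest labelled rise, and Itga8 combines a fall by 2.62 with a high signal.

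The clock list had the largest share of called members: of 19 genes, 18 were tested, 7 rose and 4 fell. The repressors Per2, Per3, Cry1 and Cry2 rose, while Per1 did not pass the test. Per2, a core repressor, read 34.3, 23.9 and 32.0 in the 3 ZT4 libraries and 233, 217 and 248 in the 3 ZT16 libraries. All 3 dark-phase libraries lay far above the light-phase ones, a 7.60-fold rise on the fitted scale (log2 2.93, SE 0.21, adjusted p = 3.13e-06). Cry1, the cryptochrome that acts late in the repressive phase, read 21.3, 28.7 and 28.4 at ZT4 and 175, 173 and 151 at ZT16. It rose by 2.63 (SE 0.15, adjusted p = 7.57e-08), and its level at ZT22 (mean 158) stayed near that at ZT16 (mean 166).

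Per3 rose by 1.40 (SE 0.17, adjusted p = 4.75e-04), from 94.0, 65.0 and 77.5 to 208, 232 and 184. Cry2, the second cryptochrome, rose by a smaller 0.89 (SE 0.20, adjusted p = 0.024), from 35.6, 32.9 and 25.4 to 56.2, 51.6 and 68.4. Both read higher at ZT10 than at ZT16, with means of 266 and 76.2. Their ZT4 and ZT16 values did not overlap, but Cry2 was called in only 1 of the 6 fits that left out a library. Per1, which also answers to acute signals, did not pass the test: it read 37.5, 48.1 and 107 at ZT4 and 76.3, 26.4 and 74.8 at ZT16, and the groups overlapped.

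Among the outputs, Tef rose by 1.27 (SE 0.18, adjusted p = 0.0036), from 209, 267 and 284 to 665, 518 and 649. Hlf read 6.94, 8.84 and 8.47 at ZT4 and 64.0, 27.7 and 51.5 at ZT16, a rise of 2.35 (SE 0.32, adjusted p = 0.0014). Dbp, the third PAR bZIP factor, went the other way: it read 141, 70.6 and 87.2 at ZT4 and 45.2, 55.2 and 44.6 at ZT16, a fall by 0.97 (SE 0.20, adjusted p = 0.016). All 3 factors had their highest mean at ZT10, at 1062 for Tef, 98.9 for Hlf and 563 for Dbp, and the order of ZT4 and ZT16 on either side of it differed between them.

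Nr1d1 and the activator genes Arntl and Npas2 were higher at ZT4 than at ZT16. Nr1d1, which encodes REV-ERBα, read 300, 175 and 162 at ZT4 and 36.1, 36.2 and 38.7 at ZT16, a fall by 2.43 (SE 0.25, adjusted p = 3.28e-04). Nr1d2, which encodes REV-ERBβ, read 708, 638 and 644 at ZT4 and 570, 552 and 506 at ZT16. Its groups did not overlap, but the log2 difference of -0.29 (95% interval -0.76 to 0.18) did not pass the test (adjusted p = 0.50). It was at its lowest at ZT22, with a mean of 69.1 against 1227 at ZT10. Arntl fell by 1.62 (SE 0.22, adjusted p = 0.0013), from 93.8, 89.1 and 81.5 to 24.4, 29.6 and 30.2, and Npas2 was low in all libraries and fell by 2.25 (SE 0.59, adjusted p = 0.045), from 10.6, 7.76 and 13.1 to 0.55, 1.57 and 2.32. The Npas2 call was kept in 1 of the fits that left out a library.

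Clock itself was nearly flat, at 899, 893 and 804 against 791, 770 and 760 (log2 -0.16, 95% interval -0.34 to 0.02, adjusted p = 0.30). Rora, which encodes a ROR receptor, read between 218 and 264 at ZT4 and between 167 and 237 at ZT16, and Bhlhe40, Bhlhe41 and Ciart, which encode accessory repressors, were not called either (log2 0.62, 0.51 and 0.56). Bhlhe40, Bhlhe41 and Ciart each had their highest mean at ZT10, a time this comparison does not use. Nfil3, the antagonist of the PAR bZIP factors, had too little signal to be tested, at 5.19 to 8.92 and 3.38 to 7.54.

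**Figure D2:**
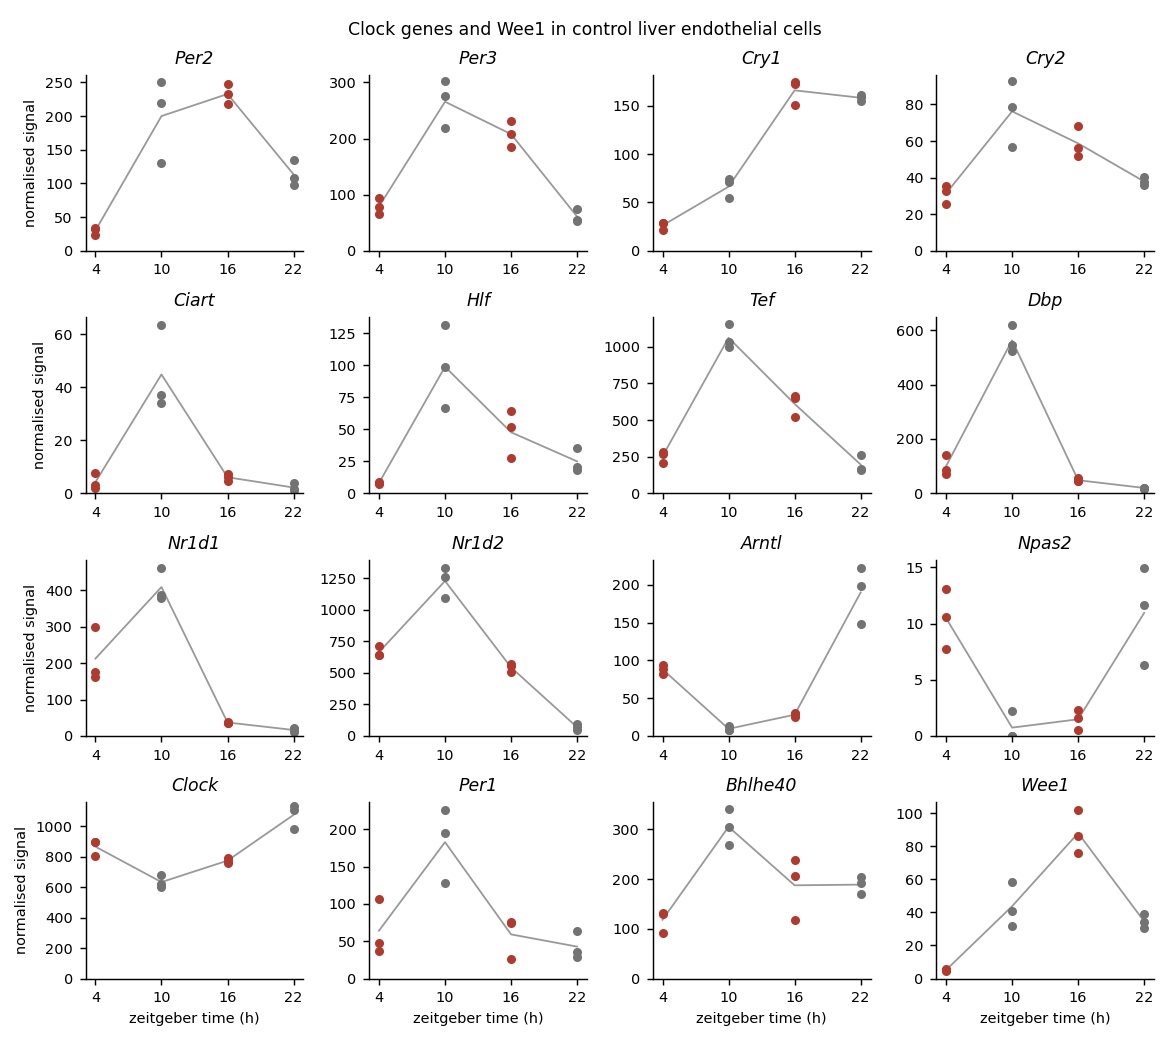
Normalised signal (vertical axes, each from 0) of 15 clock genes and Wee1 at the 4 sampled zeitgeber times (horizontal axes) in control endothelial libraries. Points are single libraries, red at ZT4 and ZT16 and grey at ZT10 and ZT22, and lines join the means of 3 libraries. Per2 and Cry1 sit low at ZT4 and high at ZT16, Nr1d1 and Arntl the reverse, and Nr1d2 differs little between these times although it falls to a mean of 69.1 at ZT22.

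Promoters of called genes were searched for motifs in RefSeq's sequences (GRCm38.p6, 250 bases before to 50 after the gene's start), and sequence is shown for 5 of the 9 genes that held one, as examples of the clock and ER stress motifs. Of 24 called members of the clock, heat shock and chaperone lists, 19 were in the promoter table. The motifs searched on both strands were the E-box CACGTG bound by CLOCK and BMAL1, the D-box TTATGTAA or TTATGCAA bound by the PAR bZIP factors, the core TAGGTCA of the ROR and REV-ERB element, the heat shock element core GAANNTTC, the cAMP response element TGACGTCA, and the endoplasmic reticulum stress element, CCAAT and CCACG with 9 bases between them. They occur in 7.15%, 1.66%, 2.61%, 7.86%, 1.79% and 0.119% of all 32851 promoters of the same length. Capitals mark the matches, and each sequence runs 5′ to 3′ on the gene's strand; the first is a stretch of 30 bases that starts 20 bases after the start of Arntl, and the others are the 250 bases before the start. The Arntl stretch lies at chr7:113207530-113207559 (plus strand), the Per3 promoter at chr4:151044666-151044915 (minus strand) and the Cry1 promoter at chr10:85185055-85185304 (minus strand). Arntl was listed with promoters 1 and 2: the stretch belongs to promoter 2, and promoter 1 held none of the motifs. Per3 carries 2 copies of the D-box and Cry1 an E-box 60 bases before its start.
Arntl: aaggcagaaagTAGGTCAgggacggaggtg
Per3: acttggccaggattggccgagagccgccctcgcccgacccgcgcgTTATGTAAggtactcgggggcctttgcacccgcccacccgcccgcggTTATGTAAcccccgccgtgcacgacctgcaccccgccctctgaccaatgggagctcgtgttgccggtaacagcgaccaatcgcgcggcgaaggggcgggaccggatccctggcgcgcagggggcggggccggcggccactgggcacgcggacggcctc
Cry1: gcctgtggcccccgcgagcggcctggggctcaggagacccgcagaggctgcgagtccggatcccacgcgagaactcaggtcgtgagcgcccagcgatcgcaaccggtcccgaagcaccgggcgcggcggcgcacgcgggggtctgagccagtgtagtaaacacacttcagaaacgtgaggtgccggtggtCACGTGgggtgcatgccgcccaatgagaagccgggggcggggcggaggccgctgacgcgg
Tef held an E-box in each of its 2 promoters, Hlf a cAMP response element, Fkbp4 a heat shock element core and Dnajb9 an E-box. A match is a description of these letters and not a binding site, and a promoter without one says nothing of the factor.

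The largest rise among the genes chosen by size was that of Wee1, the kinase that holds back entry into mitosis and a classic clock-controlled gene. Wee1 (mm9 chromosome 7, 117265573 to 117286813, plus strand) read 4.83, 5.06 and 5.54 at ZT4 and 102, 86.2 and 76.1 at ZT16. The 2 groups were far apart, a fitted rise of 14.4-fold (log2 3.85, SE 0.23, adjusted p = 7.57e-08). Of 20 cell cycle genes tested, 3 rose and 0 fell: Wee1 and the G1 cyclins Ccnd1 (log2 0.70, adjusted p = 0.009) and Ccnd2 (log2 0.45, adjusted p = 0.021). The share of rises over all genes tested was 1.95%. Ccnd1 read 920, 778 and 925 at ZT4 and 1207, 1737 and 1371 at ZT16.

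Of 20 chaperone and stress genes of the endoplasmic reticulum (ER) tested, 8 rose and 0 fell. These proteins fold secreted and membrane proteins, and their genes are induced when unfolded protein accumulates. The median log2 change of the 20 was 0.50 against 0.01 over all genes. Hspa5, which encodes the master chaperone BiP, read 1066, 1359 and 2194 at ZT4 and 3556, 6413 and 5621 at ZT16, a rise of 1.78 (SE 0.28, adjusted p = 0.014). Manf, a secreted ER stress protein, read 125, 98.3 and 141 at ZT4 and 297, 458 and 352 at ZT16, a rise of 1.59 (SE 0.16, adjusted p = 1.36e-04). All ZT16 values of both genes lay above all ZT4 values.

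Creld2, a disulphide isomerase of the ER, rose by 1.51 (SE 0.31, adjusted p = 0.023), from 31.3, 43.3 and 65.9 to 76.7, 164 and 170. Sdf2l1 and the BiP co-chaperones Dnajb9 and Dnajb11 rose by 1.15, 1.10 and 0.66. Xbp1, a transcription factor of the unfolded protein response, rose by 0.84 (adjusted p = 0.0018), and Herpud1, which takes part in ER-associated degradation, by 0.77. The abundant chaperones Hsp90b1 and Calr (log2 0.38 and 0.58) were not called, nor were the stress effectors Ddit3 (log2 0.09, 25.4, 23.8 and 35.4 against 25.8, 32.6 and 31.3) and Atf4 (log2 -0.15). The ER count fell to 4 without ZT4 number 2 and also to 4 without ZT16 number 2. Hspa5 was called in 4 of the 6 fits that left out a library, and Manf in all 6.

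Hspa5 and Creld2 each held 1 endoplasmic reticulum stress element, the motif that 0.119% of all promoters held. It starts 65 bases before the start of Hspa5, in chr2:34771840-34772089 (GRCm38.p6, plus strand), and 126 bases before that of Creld2, in chr15:88819396-88819645 (plus strand). The capitals mark the whole element with its inner 9 bases, in the 250 bases before each start.
Hspa5: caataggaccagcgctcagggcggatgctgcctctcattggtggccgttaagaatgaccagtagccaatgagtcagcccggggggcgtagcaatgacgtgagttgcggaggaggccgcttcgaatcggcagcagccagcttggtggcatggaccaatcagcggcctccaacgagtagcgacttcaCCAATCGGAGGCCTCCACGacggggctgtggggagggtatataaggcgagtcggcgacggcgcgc
Creld2: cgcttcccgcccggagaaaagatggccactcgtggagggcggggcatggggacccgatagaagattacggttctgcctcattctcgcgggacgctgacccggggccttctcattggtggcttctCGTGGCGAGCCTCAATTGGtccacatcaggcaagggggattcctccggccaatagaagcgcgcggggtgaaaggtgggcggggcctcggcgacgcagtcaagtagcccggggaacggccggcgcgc
The promoters of the called genes Dnajb9, Dnajb11, Sdf2l1, Xbp1 and Herpud1 did not hold this element, and Manf had no promoter sequence. This motif was added to the search after the chaperone values had been seen.

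Cytosolic heat shock genes fold proteins outside the ER. Of 20 tested in the heat shock and cold-inducible list, 4 rose and 1 fell, with a median of 0.53. Beside this, 1.95% of all genes tested rose and 1.72% fell. Fkbp4, a co-chaperone of HSP90 in steroid receptor complexes, rose by 1.08 (SE 0.14, adjusted p = 5.23e-04), from 82.2, 85.4 and 112 to 185, 198 and 209. Stip1, which links HSP70 and HSP90, rose by 0.97 (adjusted p = 0.0065), and the HSP90 genes Hsp90ab1 and Hsp90aa1 by 0.73 and 0.69. Hspa8 varied widely between libraries, at 306, 618 and 433 against 1298, 2201 and 601, and its difference of 1.46 did not pass the test (adjusted p = 0.20). Cirbp, the cold-inducible RNA-binding protein, fell by 0.94 (SE 0.23, adjusted p = 0.039), from 125, 97.5 and 72.0 to 55.0, 37.2 and 58.9, a call kept in 2 of the 6 fits that left out a library. Its relative Rbm3 read 162, 138 and 160 against 85.3, 123 and 108 and was not called (log2 -0.55, adjusted p = 0.064).

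**Figure D3:**
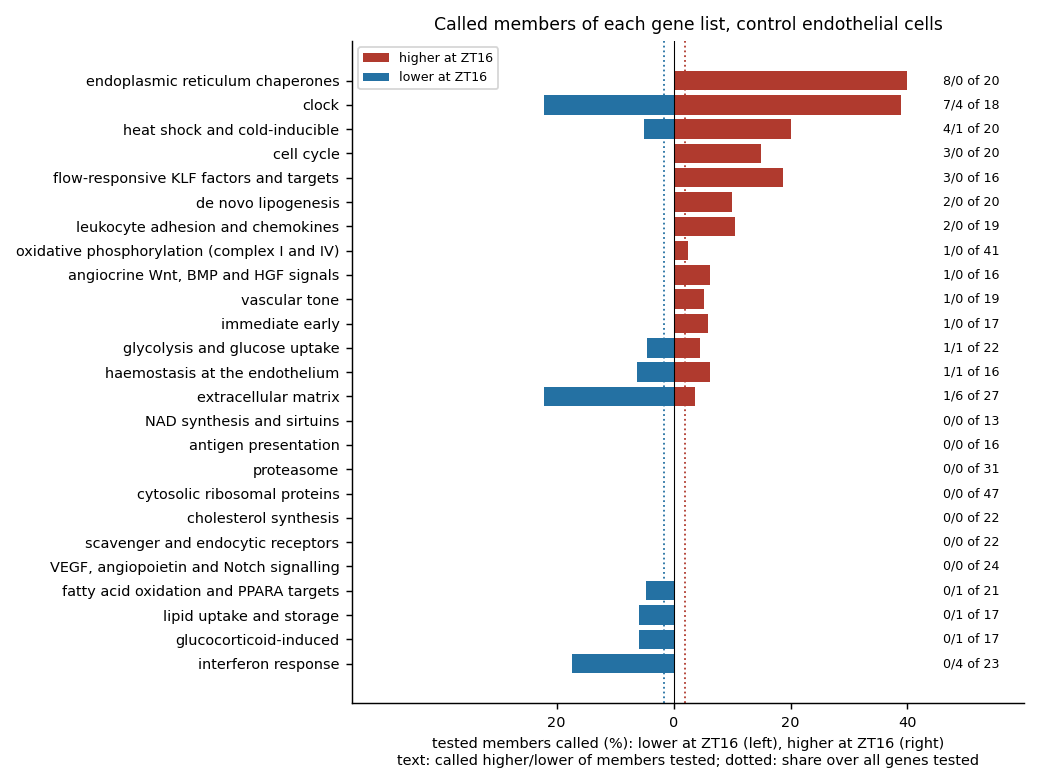
Share of the tested members of each of 25 gene lists that were called higher (red, to the right) or lower (blue, to the left) at ZT16 in control endothelial cells, in percent. Dotted lines mark the shares over all 12177 genes, 1.95% higher and 1.72% lower. The chaperone list (8 of 20 higher), the clock list (7 higher and 4 lower of 18) and the extracellular matrix list (6 of 27 lower) stand out by their bars.

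In the extracellular matrix list, 6 of 27 tested genes fell and 1 rose, and the median log2 change was -0.54. The basement membrane collagens Col4a1 and Col4a2, which are paired head to head in the genome and form 1 heterotrimer, fell alike. Col4a1 read 3542, 2886 and 2856 at ZT4 and 1492, 1604 and 1702 at ZT16 (log2 -0.95, SE 0.13, adjusted p = 9.4e-04). Col4a2 read 1870, 1371 and 1287 at ZT4 and 773, 750 and 784 at ZT16 (log2 -0.95, SE 0.16, adjusted p = 0.0080). Lamc1, a laminin chain of the same membrane, fell by 0.54.

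The fibrillar collagens Col3a1, Col1a1 and Col5a2 fell by 1.19, 1.46 and 0.73 (adjusted p = 0.030, 0.039 and 0.033). With 1 library left out, Col3a1 was called in 1 of 6 fits and Col1a1 in 0. Col3a1 read 1001, 982 and 892 at ZT4 and 332, 463 and 480 at ZT16. Timp3, an inhibitor of matrix proteases, rose by 0.76 (SE 0.11, adjusted p = 0.0019), from 2899, 3026 and 3268 to 6040, 4650 and 4921. Col1a1 and Col3a1 are also on the stellate marker list, whose summed signal was lower at ZT16. The mean level of that list therefore contains these collagens, and adjusting for it partly adjusts them for themselves. With the mean level of the stellate markers as a covariate, an alternative chosen after the data were seen, 0 matrix genes were called lower, Col3a1 differed by -0.76 and Col4a2 by -0.97 (adjusted p = 0.41 and 0.20), against adjusted p from 0.0042 to 0.41 and from 0.000586 to 0.204 over all alternatives. That fit called 13 genes in all, and its standard errors were 1.44 times those of the main comparison at the median. The matrix count was 2 without each of ZT4 number 2, ZT16 number 1 and ZT16 number 2.

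Several large falls lay outside the pathway lists. Itga8, the alpha 8 integrin subunit (mm9 chromosome 2, 12028287 to 12223547, minus strand), read 1628, 1820 and 1488 at ZT4 and 295, 218 and 294 at ZT16. It fell by 2.62 (SE 0.13, adjusted p = 7.57e-08), with means of 811 at ZT10 and 667 at ZT22 in between. St6galnac3, which adds sialic acid to glycans (mm9 chromosome 3, 152865473 to 153388097, minus strand), fell by 2.11 (SE 0.14, adjusted p = 2.38e-07), from 366, 319 and 311 to 74.4, 87.4 and 68.0. Both were called in every alternative run, the stellate covariate included. That covariate holds the amount of stellate RNA and not its own rhythm, whose part in these 2 falls was not tested. Nrxn3, a neurexin adhesion protein, read 120, 107 and 81.8 at ZT4 and 8.36, 13.1 and 25.2 at ZT16, a fall by 2.76 (SE 0.35, adjusted p = 7.32e-04), and its means at ZT10 and ZT22 were as low, at 15.6 and 15.2.

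The other large falls were those of Col5a3 (log2 -1.71), Pkhd1 (-1.61) and Clmn (-1.55). Pkhd1, which encodes fibrocystin, a protein of biliary epithelium, read 76.0, 141 and 191 at ZT4 and 40.5, 29.2 and 58.0 at ZT16. The cholangiocyte markers as a list were close to absent, with 7 of 8 at a median signal under 10 over the 12 control libraries and summed levels of 70.5 to 141 at ZT4 and 32.4 to 114 at ZT16. Their part in the Pkhd1 result was not tested. The beta globin genes Hbb-b1 and Hbb-bs fell by 2.22 and 2.19 (adjusted p = 0.0050 and 0.0035). They are near-identical copies whose reads could be split, and both are erythroid markers, a list whose summed signal ran from 191 to 254 at ZT4 and from 81.3 to 122 at ZT16. Fam167a and the olfactory receptor gene Olfr1396 completed the large rises, at 1.41 and 1.39.

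Several genes of vascular function rose or fell singly. Vcam1, an adhesion molecule for leukocytes, read 456, 513 and 567 at ZT4 and 938, 748 and 837 at ZT16, a rise of 0.71 (SE 0.18, adjusted p = 0.049), a call kept in 0 of the 6 fits that left out a library. Jam3, a junctional adhesion molecule, rose by 0.77 (adjusted p = 0.019). They were the 2 called members among 19 adhesion and chemokine genes tested, beside a share of 3.67% over all genes. Between 0 and 2 genes of this list were called higher when 1 library was left out. Cav1, the main protein of caveolae, rose by 0.81 (SE 0.13, adjusted p = 0.0036), from 178, 200 and 209 to 413, 352 and 276, and held in all 6 of these fits. Ptgis, the prostacyclin synthase, rose by 1.34 at a low signal (8.16, 5.38 and 6.33 against 14.1, 20.8 and 20.1). Tfpi, the inhibitor of the tissue factor pathway, fell by 0.39 (adjusted p = 0.028), from 2092, 1899 and 1807 to 1509, 1550 and 1366. Ptgis and Tfpi were each called in 1 of the 6 fits.

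Kitl, the ligand of the KIT receptor, was the 1 called member of 16 angiocrine genes and rose by 0.70 (adjusted p = 0.017), from 644, 479 and 516 to 1050, 824 and 790. The list of flow-responsive genes had 3 called members of 16, namely Cav1, Vcam1 and Ptgis, which other lists hold too. Both lists stand beside a share of 3.67% called over all genes tested. With 1 library left out, 0 to 2 angiocrine and 1 to 2 flow-responsive genes were called higher. The flow-responsive transcription factors Klf2 (log2 -0.04) and Klf4 (log2 0.20) overlapped widely, Klf2 at 140 to 345 and 169 to 366. Nos3, the endothelial nitric oxide synthase, read between 248 and 263 at ZT4 and between 232 and 272 at ZT16 (log2 -0.03, adjusted p = 0.95). No member was called among 24 VEGF, angiopoietin and Notch genes or 22 scavenger and endocytic receptors. The most abundant of these, such as Stab2, have values that quantile normalisation ties to a few top ranks, so that small changes cannot be seen in them.

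Single metabolic genes were called, beside a share of 3.67% over all genes tested. Plin2, a coat protein of lipid droplets, fell by 0.73 (SE 0.11, adjusted p = 0.0016), from 602, 623 and 638 to 429, 328 and 372. Cpt1a, which lets fatty acids into mitochondria, fell by 0.80 (SE 0.15, adjusted p = 0.0095), from 583, 715 and 578 to 353, 349 and 370. They were the only called members of the lipid storage list (17 tested) and the fatty acid oxidation list (21 tested). In de novo lipogenesis, Scd2, a stearoyl-CoA desaturase, and Thrsp, a lipogenic regulator, rose by 0.83 and 1.48, 2 of 20 tested. Thrsp read 31.8, 30.3 and 32.0 at ZT4 and 74.5, 73.6 and 130 at ZT16.

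Thrsp was also abundant in whole control liver on ad libitum feeding, at 79.7, 141 and 67.8 CPM (library-scaled read counts) at ZT4 and 1827, 1640 and 1424 CPM at ZT16. With the hepatocyte marker level as a covariate Thrsp rose by 1.51 in endothelial cells (adjusted p = 9.9e-04, against 9.9e-04 to 0.021 over all alternatives). That covariate holds the amount of hepatocyte RNA and not its own rhythm, whose part in the result was not tested. In glycolysis, Pfkp, the platelet-type phosphofructokinase, fell by 0.79 and Ldha, lactate dehydrogenase A, rose by 0.39, 2 of 22 tested. Cox5a (log2 0.49) was the 1 called gene of 41 in complexes I and IV. Ldha was called in 2 and Cox5a in 1 of the 6 fits that left out a library. No member was called among 22 cholesterol synthesis, 47 ribosomal protein, 31 proteasome and 13 NAD and sirtuin genes.

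Among response genes, 4 of 23 interferon genes fell and 0 rose: Oasl2 by 0.56, Stat2 by 0.53, Gbp3 by 0.43 and Irf9 by 0.42, with adjusted p from 0.039 to 0.049. Oasl2 read 300, 314 and 282 at ZT4 and 178, 216 and 212 at ZT16. The calls were close to the threshold, and between 0 and 2 genes of the list were called when 1 library was left out. No antigen presentation gene of 16 was called. Mt1, a metallothionein that glucocorticoids and metals induce, fell by 0.93 (SE 0.19, adjusted p = 0.016), from 166, 124 and 123 to 96.0, 52.3 and 71.5, the 1 called gene of 17 on the glucocorticoid list. Nr4a2, an orphan nuclear receptor, rose by 1.51 at a low signal, the 1 called gene of 17 on the immediate early list, kept in 2 of the 6 fits. Since 3.67% of all genes tested were called, 1 call among 17 is not a result about either list. Gzma and Gzmb, granzymes of cytotoxic lymphocytes, rose by 1.07 and 1.97, calls kept in 0 and 1 of the 6 fits that left out a library. The lymphocyte markers summed to between 40.6 and 84.1 at ZT4 and between 98.0 and 153 at ZT16, and 13 of these 14 had a median signal under 10 over the control libraries.

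The other 2 control times placed ZT4 and ZT16 on a daily course. Of the 238 genes that rose, 201 had their lowest mean at ZT4 and 180 their highest at ZT16, while 24 were highest at ZT10 and 34 at ZT22. Of the 209 that fell, 179 had their highest mean at ZT4 and 122 their lowest at ZT16, with 61 lowest at ZT10 and 26 at ZT22. ZT10 lay above ZT4 for 221 of the rises, and below it for 188 of the falls. Since ZT4 and ZT16 values chose these genes, the counts only describe where the unused times fell.

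Knockout endothelial libraries gave a second set of ZT4 and ZT16 values that the control comparison did not use. In them 124 of 12213 genes were called (1.02%), 81 higher and 43 lower at ZT16. That number rested on few libraries: it was 1283 of 12107 (10.6%) without the knockout libraries number 2 and 3 at ZT22, whose log2 values differed from the mean of the other 2 of their group with an SD of 0.77 and 0.73 against 0.35 to 0.56 in the other 22 libraries. With 1 knockout library at ZT4 or ZT16 left out it was between 3 and 169, with 3 calls without ZT4 number 3 and also without ZT16 number 1. Of the control calls, 445 were tested in knockout libraries and 381 (85.6%) had a change of the same sign there. Over all genes tested, 48.9% had a positive change in knockout libraries, against 199 of the 236 control rises. The genes called in both numbered 41, or 9.17% of the control list and 33.1% of the knockout list, and all 41 had the same direction. Without the 2 libraries at ZT22 they numbered 148, or 33.1% of the control list and 11.5% of the knockout list, again all of the same direction. The median change was 0.68 in control and 0.36 in knockout libraries for the control rises, and -0.62 and -0.43 for the falls; the control medians are those of genes chosen for their size.

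Itga8 read 1663, 1665 and 1827 at ZT4 and 262, 277 and 392 at ZT16 in knockout libraries, a fall by 2.49 next to 2.62 in controls. Cry1 rose by 2.98, Per2 by 3.63 and Wee1 by 2.72 in knockout libraries. The chaperone list had 1 called member of 20 in knockout libraries, with a median of 0.63, and the matrix list had 0 of 27, with a median of -0.08 against -0.54 in controls. Without the 2 libraries at ZT22 that stand apart, 4 of 20 chaperone genes were called higher and 0 lower, and of 27 matrix genes 1 was called higher and 1 lower. Hspa5 differed by 1.79 in knockout libraries (adjusted p = 0.11), and Col4a1 by -0.23 (adjusted p = 0.57), neither of them called.

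The difference of the change between genotypes was tested over 12525 genes, and limma called 0 (0%), with 1358 genes at an unadjusted p under 0.05. Hence no gene was shown to change differently in this fit of all 24 libraries. The 5 smallest p belonged to Flywch1, Ppp2cb, Abca7, Sbf1 and Actr3. Sbf1 read 256, 266 and 265 at ZT4 and 170, 161 and 187 at ZT16 in controls, a fall by 0.60, and 189, 246 and 206 against 294, 288 and 199 in knockout libraries (unadjusted p of the difference 1.27e-04). Abca7 differed by -0.14 in controls and rose by 0.87 in knockout libraries. For Mt1 the control fall by 0.93 stood beside a knockout difference of 0.25 (unadjusted p = 3.90e-04), and for Col1a1 the fall by 1.46 beside 0.80 (unadjusted p = 0.0054). Without the knockout libraries number 2 and 3 at ZT22, 44 genes were called in this test. They included all 5 genes named for their p, with limma adjusted p from 0.015 (Abca7) to 0.037 (Sbf1 and Actr3). With the 12 libraries at ZT4 and ZT16 alone, 11 genes were called.

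**Figure D4:**
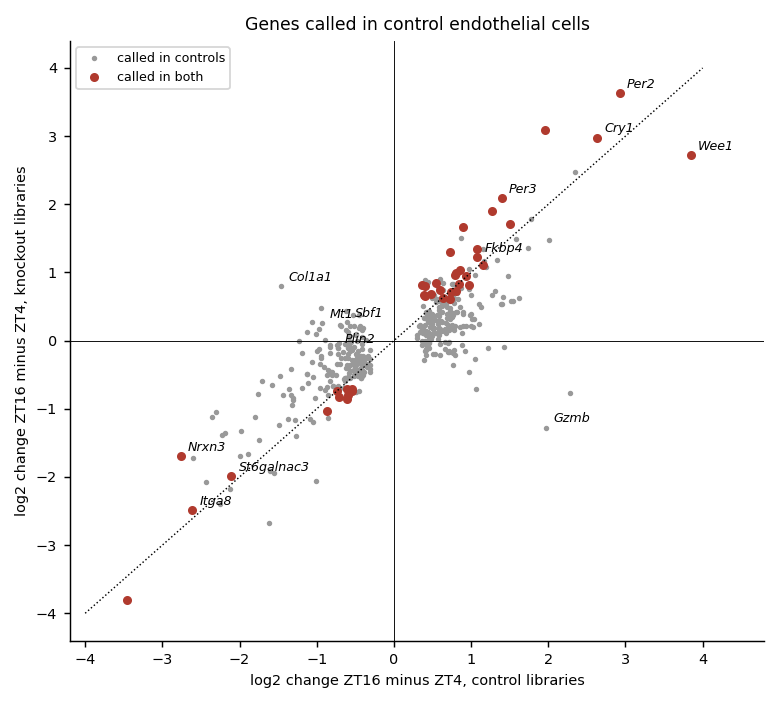
Log2 change from ZT4 to ZT16 in knockout endothelial libraries (vertical axis) against that in control libraries (horizontal axis) for the 445 genes called in controls and tested in both. Red points are the 41 genes called in both sets, and the dotted line marks equal change. Most points, 381 of 445, lie in the quadrants of equal sign, and Gzmb and Col1a1 are labelled among those that do not.

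**Figure D5:**
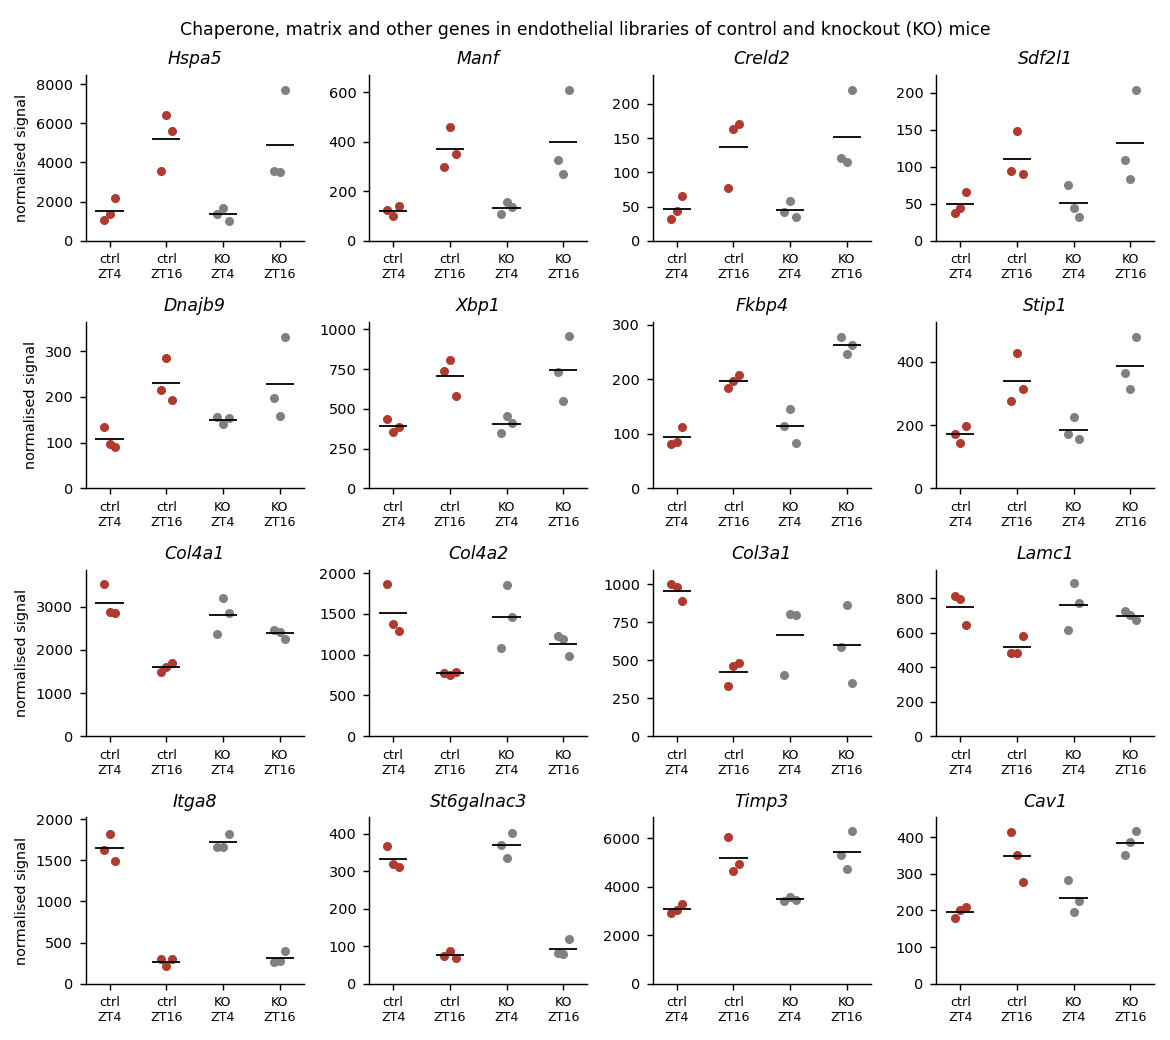
Normalised signal (vertical axes, each from 0) of 16 genes in single endothelial libraries of control (red) and knockout (grey) mice at ZT4 and ZT16; points are libraries and black lines the means of 3. Control values of the chaperone and heat shock genes are higher at ZT16, those of the collagens, Lamc1, Itga8 and St6galnac3 lower. For Col4a1 the knockout groups overlap, while for Itga8 both genotypes show the same step.

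Control Kupffer cells, the liver macrophages, and whole control liver offer levels at the same times, side by side and untested, since each table was normalised on its own. Per2 read between 7.83 and 28.8 at ZT4 and between 223 and 243 at ZT16 in Kupffer cells, and 5.36 to 7.93 CPM against 93.6 to 121 CPM in liver. Dbp, which fell in endothelial cells, was also lower at ZT16 in liver (log2 -1.03) but higher in Kupffer cells (log2 2.78). Arntl was lower at ZT16 in Kupffer cells (log2 -1.42) and nearly level in liver (log2 -0.13). Nr1d1 differed by -2.43 in endothelial cells, -0.10 in Kupffer cells and -4.19 in liver. Kupffer values of Nr1d1 overlapped between the times, at 59.8, 69.7 and 118 against 68.8, 102 and 57.1.

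Hspa5 was higher at ZT16 in liver by 2.02 and in Kupffer cells by 0.54, and Creld2 by 3.30 and 0.63. Itga8 was low in the other tables, at 33.1 to 107 against 5.50 to 27.6 in Kupffer cells and 2.01 to 5.23 CPM against 0.711 to 3.29 CPM in liver. The Kupffer library number 1 at ZT4 was the farthest from its group, with an SD of 0.69 from the mean of the other 2, against 0.38 to 0.44 for the other 5. Plin2 was lower at ZT16 in all 3 sources, by 0.73 in endothelial cells, 1.15 in Kupffer cells and 0.91 in liver on the log2 scale.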

How the data were processed

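RNA of 6 control endothelial libraries was the base of the comparison. The libraries are TruSeq, per the labels' protocols. STAR, HOMER and the mm9 build are named in the submitters' processing notes, while the strand of counting is not given there. The authors deposited a signal per transcript for endothelial and Kupffer cells that proved to be quantile-normalised: all columns hold 1 set of sorted values, with a total of 5748052 per library, and 71.6% of values are not whole, so depth is unknown. The deposited liver values are expected counts (6.33e6 to 7.47e6 per library), converted here to CPM for side-by-side values only, without a test. The liver table under reverse-phase feeding was not used here. Transcript lengths in the deposited table, another column, were used only to choose the longest transcript.

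Of 34600 transcripts, the one with the largest mean was kept for each of 24421 symbols. A gene entered the test when 3 libraries reached a value of 10. Testing was done with limma 3.58.1 (trend, robust; R 4.3.3) on log2(value + 1), time being a factor over all 12 control libraries, and likewise over the 12 knockout libraries and, for the genotype difference, all 24. The log2 values are therefore computed here from the deposited signal. Calls are Benjamini-Hochberg adjusted p under 0.05. On simulated data for the control comparison, 72.4% of 98 genes changed by 1 and 94% of 100 changed by 2 (log2) were recovered among 11999 genes, with 4 false calls. The simulated noise was independent between genes, so deviations that many genes of a library share are not covered by these numbers. Gene coordinates are mm9, and promoter sequences are RefSeq's on GRCm38.p6. Python 3.11.15 and pandas 2.3.3 made the summaries.

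Genes were named by rule: all clock members, the 3 most changed called genes (mean of at least 10) from every further list, the 10 largest called rises and falls with groups that do not overlap, a higher mean of at least 50 and no predicted name, and the 5 smallest p of the genotype difference. Further called or defining members of the lists are named after their values were seen. A clock list member, counted in the totals, is not reported here. Members and lists were chosen with earlier results of these data known. Alternatives were other pseudocounts and filters, other sets of libraries, the replicate number as a block, the longest transcript, no trend, a 1.5-fold minimum, hepatocyte markers as a covariate and each library left out; Kupffer and stellate markers as covariates were added after seeing the data.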

Additional observations from a re-analysis of the deposited data

How the results depend on the processing

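All 447 control calls kept their direction under every alternative in which they were tested, but their number moved. It was 199 with the 6 libraries at ZT4 and ZT16 alone (117 higher, 82 lower), 224 with all 24 libraries (128, 96), 203 without trend and robust step (119, 84), 267 with a 1.5-fold minimum (147, 120), 207 with the Kupffer marker covariate (116, 91) and 13 with the stellate one (9, 4). Without a filter on low values 132 genes were called lower. Leaving out 1 library gave 134 to 594 calls, 76 to 293 higher and 56 to 301 lower, with the lowest without ZT4 number 2 or ZT16 numbers 1 or 2. The cause was not tested.

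For the knockout, calls were 52 without a filter, 1283 without ZT22 numbers 2 and 3, and 3 to 169 with 1 library left out (3 without number 3 at ZT4 and also without number 1 at ZT16). For the genotype difference they were 44 without these ZT22 libraries, 11 with 12 libraries, and 0 to 1 with 1 left out. Per1 turned to 0.28 with the stellate covariate and ran from -0.42 to 0.38 with 1 library left out, and Flywch1 from -0.037 to 0.17; neither was called.

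Of 56 named and called control genes, 23 were called in each of the 6 fits that left out a library, and 10 under every alternative: Nr1d1, Per2, Cry1, Hlf, Fkbp4, Manf, Thrsp, Wee1, Itga8 and St6galnac3. Samples at ZT4 and ZT16 with the same number deviated together with correlations of 0.34, 0.12 and 0.096. ZT4 numbers 1 and 3 correlated best with their own number at ZT16, but ZT4 number 2 did so with ZT16 number 3 (0.28). As the match was partial, the numbers were not taken to pair the samples. With the number as a replicate block, 483 control and 39 knockout genes were called, and 0 for the difference.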

Other observations

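The genes that fell were longer in the genome than those that rose. From first to last mm9 base of the transcript, the median span was 37.3 kb for the 209 falls, 27.2 kb for the 238 rises and 21.9 kb for all 12177 genes tested. Spans over 100 kb made up 28.7% of the falls, 11.8% of the rises and 11.5% of all genes. Among the 2436 genes with the longest spans (62.5 kb and over), 3.37% were called lower and 2.22% higher, against 0.985% and 1.48% among the 2436 with the shortest. Itga8, St6galnac3, Nrxn3 and Pkhd1 are among the long genes that fell. The median log2 change was -0.01 for the longest and 0.05 for the shortest spans in control libraries, and -0.11 and 0.16 in knockout libraries. The span was examined after the values had been seen, and its part in the calls was not tested.

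Small nucleolar RNA genes, which the library type does not aim at, gave 3 of the falls and 0 of the rises among 28 tested. Over all genes tested, 1.72% fell and 1.95% rose. The falls in total numbered 56 to 301 when single libraries were left out, and whether these 3 calls hold there was not tested.

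Kupffer cell markers were lowest at ZT22, where their 14 genes summed to between 4808 and 10220, and highest at ZT10, at 15700 to 20860. The stellate markers were lowest at ZT10, at 9775 to 15160.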
